A study of Mus musculus with 4 samples.

Results

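Ribosomes are built in the nucleolus, where RNA polymerase I transcribes the ribosomal DNA, small nucleolar RNA (snoRNA) particles modify and help to cut the transcript, and many assembly factors fold it into the small and large subunits before export to the cytoplasm. The genes of these factors are usually expressed together, and their activity tracks cell growth and nutrient supply. In the hepatocyte, the cell that carries out most liver metabolism, this machinery supplies ribosomes for the large output of plasma proteins.

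The nucleolar ribosome biogenesis factors described here are 50 genes grouped by function, from nucleolin (Ncl) to subunits of RNA polymerase I. They were chosen with earlier results of these data known, so no test over the list is given. Of the 50 genes, 35 had at least 1 row under their Ensembl identifier, out of 19284 identifiers in all, and these 35 genes had 135 of the 37363 rows. The other 15 were not analysed here, because no row carries their identifier: Polr1b, Polr1e, Utp18, Utp14a, Imp3, Ltv1, Rrp12, Pes1, Noc3l, Nop2, Nop16, Rrs1, Ebna1bp2, Gnl2 and Npm1. The study profiled RNA of primary mouse hepatocytes in 2 groups of 2 samples, cells given non-essential amino acids (NEAA) and untreated control cells. The labels give no strain, age, dose, composition or time, and leave unsaid whether each sample had its own culture or animal. The p-values below therefore reflect sample-to-sample spread that may be technical. Values are the authors' FPKM (fragments scaled by transcript length and by the mapped fragments of the library), without counts, so the depth is unknown.

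A row is called a model below. The header of the authors' files names the rows as lncRNA genes, and 34 of the 35 genes had exactly as many models as GENCODE M21 lists retained-intron transcripts for them. The exception was Noc2l, and none of the 15 genes without a row has a retained-intron transcript there. A retained-intron transcript is an RNA of a protein-coding gene in which an intron is still present and which is not annotated as coding. A value is therefore not the level of the mRNA, and a gene that is said to have fallen stands for the sum of its models. For genes with a single model the transcript can be inferred from this match, as for Utp4, whose only retained-intron transcript in GENCODE M21 has 15 exons (GRCm38 chromosome 8, 106894589 to 106923087, plus strand, 3113 bases).

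FPKM over all rows summed to 60942.0 to 65718.5 in NEAA and to 73376.5 to 73600.1 in control, of which a pair of lincRNAs known to collect ribosomal RNA reads, Gm26917 and Gm42418, held 46.1% to 49.4% in NEAA and 50.4% to 52.9% in control. Log2 values correlated with Pearson's r = 0.862 between the NEAA samples and 0.869 between the control samples, and with 0.744 to 0.776 between samples of different groups, as a description across 6064 models that share the libraries. Of 15 hepatocyte markers 3 had a row (Ahsg, Cyp2e1 and Trf), with a summed level of 63.5 and 60.8 FPKM in NEAA and 24.6 and 30.4 FPKM in control, nearly all of it from Trf, the transferrin gene. Macrophage, endothelial, stellate, cholangiocyte and red blood cell markers, 19 of 35 with a row, each summed to at most 1.73 FPKM per list in every sample, and Clec4g, Hba-a2 and Hbb-bs were listed at 0 in all 4 samples. The part of these levels in the results below was not tested.

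With NEAA, the models of ribosome biogenesis genes had lower summed levels than in control cells. All 135 models together summed to 172 and 183 FPKM in the NEAA samples, against 351 and 422 FPKM in the control samples. As a share of the summed FPKM of all models of protein-coding genes, this was 0.684% and 0.730% in NEAA and 1.36% and 1.52% in control. This share does not depend on the ribosomal lincRNAs, and it is not a share of mRNA. Both NEAA samples lay below both control samples on either scale. Of the 135 models, 121 had a lower mean in NEAA, 2 were listed at 0 throughout and 12 had a higher mean, whereas 51.1% of all models above 0 in any sample had a lower mean in NEAA. In bulk RNA, fewer cells with these transcripts and less of them per cell cannot be told apart.

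To test single genes, the models of each gene were summed and log2(FPKM + 1) was compared with limma over all 4700 genes with a mean sum of at least 1 FPKM. Of the 35 genes, 31 passed this filter on level. Of these 31, 8 fell at an adjusted p under 0.05 and 0 rose, against 4.11% of all tested genes that fell and 6% that rose. The 8 genes were Mybbp1a, Wdr43, Wdr75, Dkc1, Rrp9, Utp4, Rrp1b and Fbl, with limma adjusted p-values from 0.0156 to 0.0464. For 23 of the 31 genes both NEAA samples lay below both control samples, against 34.4% of all tested genes, and for 0 both lay above. The median log2 fold change was -0.79 over the 31 genes and -0.06 over all tested genes, and 30 of 31 values were negative, against 55.1% of all. Without the filter 33 of the 35 genes had a negative log2 fold change. Over all genes limma called 282 higher and 193 lower in NEAA, a split that became 390 higher and 86 lower after rescaling each sample to a sum of 1000000 and 303 higher and 127 lower when Gm26917 and Gm42418 were left out of that sum. The first rescaling moved the median log2 fold change of all genes from -0.06 to 0.13. That of the ribosome biogenesis genes was then -0.73, and 5 of them were called. The distance between the medians grew, but values were enlarged before 1 was added, which acts like a smaller pseudocount. With a pseudocount of 0.1 and no rescaling, the medians were -0.08 over all genes and -0.93 over the 31 genes. What rescaling alone does to this distance was not tested. Under either rescaling 29 of the 31 values stayed negative.

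At an unadjusted p under 0.05, 20 of the 31 genes were lower, against 16.3% of all tested genes. Without NEAA 1, control 1 or control 2, limma called 0 of the 31 genes (18, 18 and 16 at an unadjusted p under 0.05), and without NEAA 2 it called Mybbp1a and Nop56, with 20 at an unadjusted p under 0.05. Over all 4700 genes, in either direction, 1170, 1063, 1058 and 1202 reached that p without NEAA 1, control 1, control 2 and NEAA 2. The negative log2 fold changes numbered 29 to 30 of 31 in these fits.

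**Figure D1:**
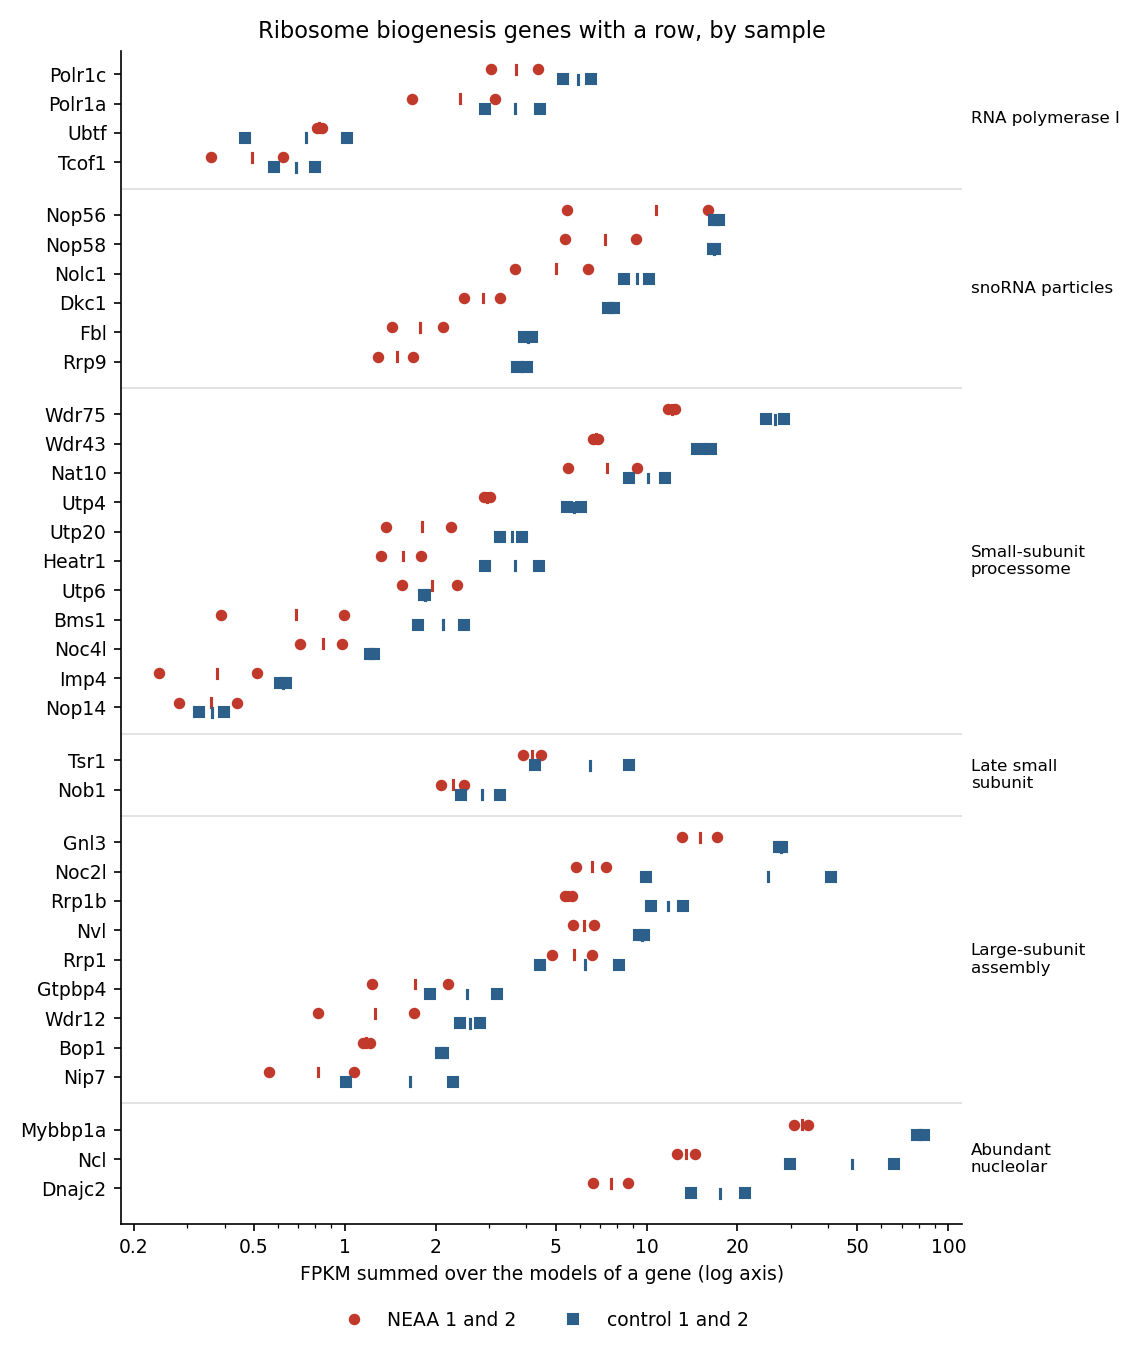
FPKM summed over the models of each of the 35 genes with a row, on a log axis, with 1 point per sample (circles for NEAA, squares for control) and short lines at the group means. Genes are grouped by role and ordered by level. For most, such as Mybbp1a and Wdr75, both circles lie left of both squares. Circles and squares overlap for Polr1a, Ubtf, Tcof1, Utp6, Nop14, Nat10, Nob1, Tsr1, Rrp1, Nip7 and Gtpbp4.

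Among abundant nucleolar proteins with several roles, 3 of 4 genes had a row. Of the 3, 1 fell and all 3 had NEAA below control without overlap, against 4.11% and 34.4% of all tested genes. Mybbp1a (chromosome 11, 72441355 to 72451768, plus strand), whose product binds RNA polymerase I and pre-ribosomal RNA, measured 30.9 and 34.4 FPKM in NEAA, against 78.5 and 83.0 FPKM in control. It fell to 40.4% of the control mean (log2 fold change -1.28, SE 0.14, limma adjusted p = 0.0156), which is the smallest adjusted p of the set. Of its 7 models, 6 had a lower mean in NEAA and 1 was listed at 0. Mybbp1a model 4, in file order, was at 10.2 and 10.3 FPKM in NEAA and at 31.5 and 32.5 FPKM in control, and it fell in the test over single models too (log2 fold change -1.55, SE 0.14, limma adjusted p = 0.0314). Spns2 overlaps Mybbp1a on the opposite strand, as do Mpp1 with Dkc1, Parp3 with Rrp9, CT010429.2 with Wdr43 and Hsf2bp with Rrp1b, and as no strand setting is given the reads of such pairs cannot be told apart.

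Ncl (chromosome 1, 86344719 to 86359400, minus strand) codes for nucleolin, which coats nascent pre-ribosomal RNA and acts on ribosomal DNA chromatin. Its sum was 14.5 and 12.6 FPKM in NEAA and 29.8 and 65.9 FPKM in control, and it did not pass (log2 fold change -1.64, SE 0.39, limma adjusted p = 0.0695). The spread in control came from Ncl model 1, at 7.42 FPKM in control 1 and 41.6 FPKM in control 2, against 4.42 and 3.74 FPKM in NEAA. Without that model, left out after its spread was seen, Ncl measured 10.1 and 8.84 FPKM in NEAA and 22.3 and 24.3 FPKM in control. Ncl model 3 measured 5.01 and 4.64 FPKM in NEAA and 12.03 and 12.5 FPKM in control and fell (log2 fold change -1.19, SE 0.14, limma adjusted p = 0.0410), a call lost under quantile normalization and both rescalings, where the log2 fold change was -1.09, -1.12 and -1.24. All 4 models of Ncl had both NEAA samples below both control samples. Dnajc2, which codes for a chaperone of the Hsp40 type that sits on ribosomes, had a sum of 6.63 and 8.65 FPKM in NEAA and 14.0 and 21.2 FPKM in control and did not pass (adjusted p = 0.0648). Dnajc2 model 3, at 2.86 and 3.34 FPKM in NEAA and 8.94 and 10.6 FPKM in control, fell (log2 fold change -1.39, SE 0.16, limma adjusted p = 0.0418), a call lost under both rescalings, where the log2 fold change was -1.42 and -1.54.

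Among proteins of snoRNA particles and their chaperone 3 of 6 genes fell, against 4.11% of all tested genes. For all 6 both NEAA samples lay below both control samples, against 34.4% of all. These particles use a guide RNA to place a methyl group or a pseudouridine on ribosomal RNA. Dkc1 (chromosome X, 75095854 to 75109777), the pseudouridine synthase dyskerin, measured 2.48 and 3.27 FPKM in NEAA and 7.78 and 7.47 FPKM in control. It fell (log2 fold change -1.16, SE 0.16, limma adjusted p = 0.0241), and all 4 of its models had separate groups. Fbl (chromosome 7, 28169710 to 28179269), the methyltransferase fibrillarin, measured 2.12 and 1.44 FPKM in NEAA, against 4.18 and 3.93 FPKM in control. It fell (log2 fold change -0.87, SE 0.17, limma adjusted p = 0.0464), a call that was lost under a pseudocount of 0.1, quantile normalization and both rescalings, where the log2 fold change was -1.17, -0.88, -0.97 and -1.10. Rrp9 (chromosome 9, 106475963 to 106485424), a protein of the U3 particle that directs early cuts of the transcript, measured 1.29 and 1.68 FPKM in NEAA and 4.02 and 3.72 FPKM in control. It fell (log2 fold change -0.97, SE 0.14, limma adjusted p = 0.0297), although each of its 5 models was below 1 FPKM on average and so under the filter for single models.

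Nop56 and Nop58 code for the paired scaffold proteins of the methylating particles. Nop58 measured 9.22 and 5.35 FPKM in NEAA and 16.8 and 16.6 FPKM in control, without passing (log2 fold change -1.14, SE 0.26, limma adjusted p = 0.0639). The sum of Nop56 measured 5.44 and 16.0 FPKM in NEAA, against 16.7 and 17.4 FPKM in control (adjusted p = 0.331). The high value of NEAA 2 came from Nop56 model 3, at 0.308 and 9.58 FPKM in NEAA and 0.251 and 0.638 FPKM in control. The other 9 models of Nop56 summed to 5.13 and 6.42 FPKM in NEAA and to 16.5 and 16.8 FPKM in control, 34.7% of the control mean. Nop56 model 10 had the largest negative log2 fold change of the 75 tested models of the set, at 0.874 and 1.32 FPKM in NEAA and 7.43 and 7.35 FPKM in control (log2 fold change -2.01, SE 0.16, limma adjusted p = 0.0299). Nolc1, a chaperone for these particles, measured 3.66 and 6.39 FPKM in NEAA and 8.42 and 10.2 FPKM in control without passing (adjusted p = 0.126).

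**Figure D2:**
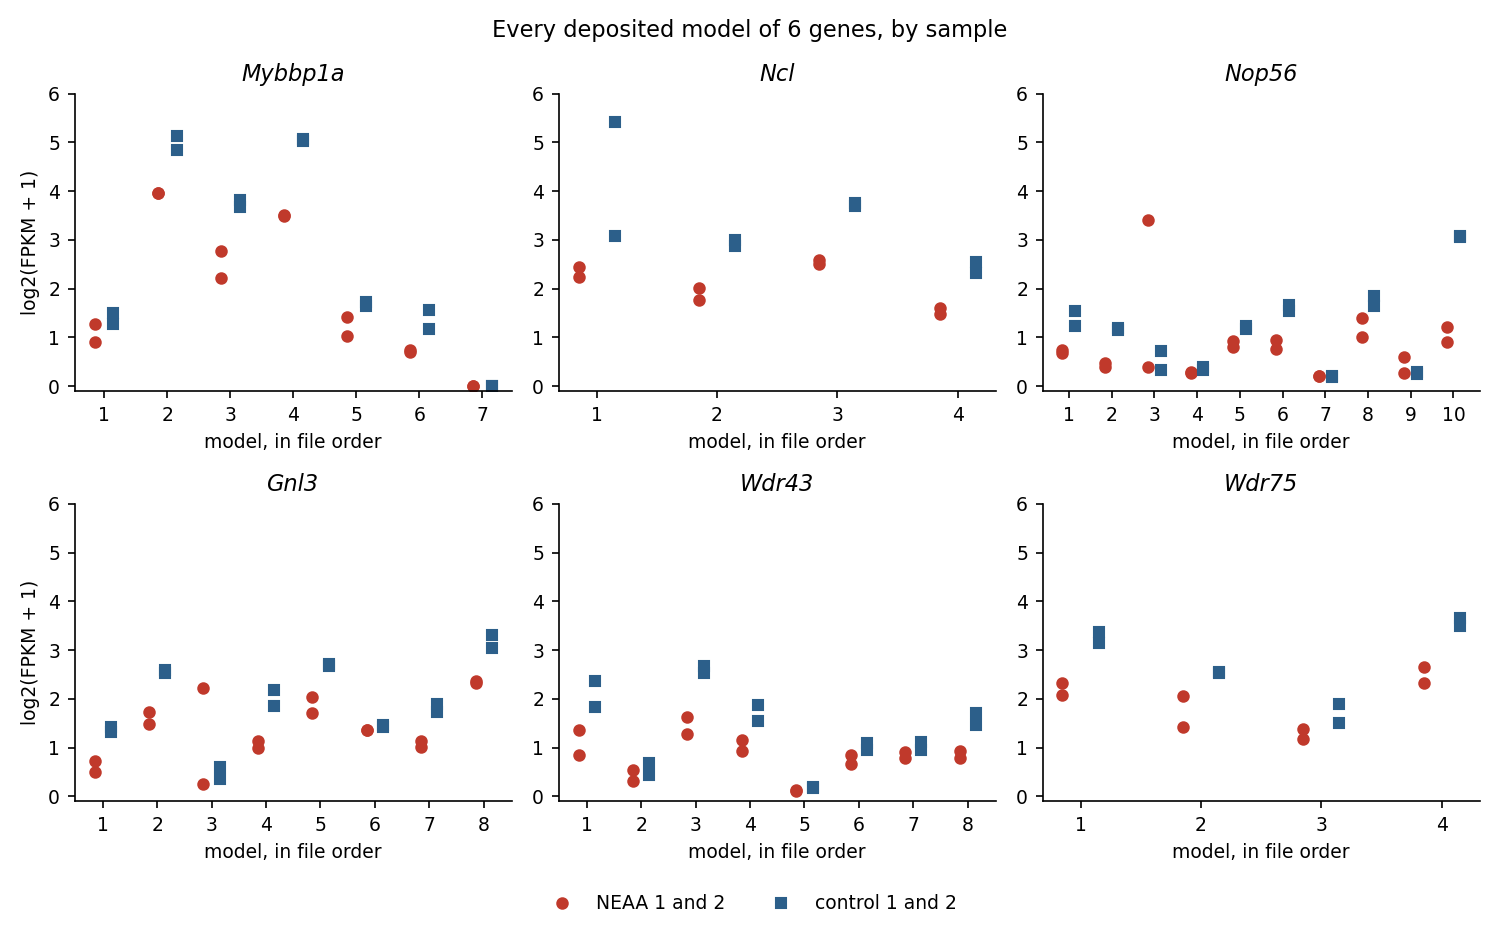
Level of every model of 6 genes as log2(FPKM + 1), by model in file order, with 1 point per sample (circles for NEAA, squares for control). Most models show both circles below both squares, while Nop56 model 3 and Gnl3 model 3 are high in 1 NEAA sample and Ncl model 1 in 1 control sample.

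The small-subunit processome, the large particle that forms on the front part of the ribosomal RNA transcript, had 11 of its 14 genes with a row and 9 tested. Of these 9, 3 fell, 7 had both NEAA samples below both control samples and 8 had a negative log2 fold change. The shares of all tested genes were 4.11%, 34.4% and 55.1%. The 3 that fell, Wdr75, Wdr43 and Utp4, belong with Heatr1 to the complex that joins the transcript first and is also needed for its synthesis. Wdr75 (chromosome 1, 45795166 to 45823619) measured 11.8 and 12.5 FPKM in NEAA, against 28.6 and 24.8 FPKM in control, and fell (log2 fold change -1.08, SE 0.14, limma adjusted p = 0.0236). Wdr43 (chromosome 17, 71615895 to 71659031) measured 6.93 and 6.63 FPKM in NEAA and 16.3 and 14.7 FPKM in control, and fell likewise (log2 fold change -1.08, SE 0.13, limma adjusted p = 0.0198). All 8 models of Wdr43 and all 4 of Wdr75 had a lower mean in NEAA. Utp4, known in people as cirhin, the protein altered in a childhood cirrhosis, measured 3.04 and 2.89 FPKM in NEAA and 6.05 and 5.46 FPKM in control in its only model. It fell (log2 fold change -0.77, SE 0.13, limma adjusted p = 0.0381), and the call was lost under both rescalings, where the log2 fold change was -0.73 and -0.85. Heatr1 measured 1.80 and 1.32 FPKM in NEAA and 4.41 and 2.92 FPKM in control, a log2 fold change of -0.85 that did not pass (adjusted p = 0.0754).

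Bms1, a GTPase, was at 0.992 and 0.390 FPKM in NEAA and at 1.75 and 2.49 FPKM in control, and Utp20, a large scaffold, at 1.38 and 2.24 FPKM in NEAA and 3.26 and 3.88 FPKM in control, neither passing (adjusted p = 0.0844 and 0.0946). Groups overlapped for Nat10, which acetylates ribosomal RNA, at 5.50 and 9.30 FPKM in NEAA and 11.5 and 8.78 FPKM in control. They also overlapped for Utp6, the only tested gene of the set with a positive log2 fold change (0.04), at 1.55 and 2.35 FPKM in NEAA and 1.85 and 1.83 FPKM in control. Noc4l did not pass (log2 fold change -0.28, adjusted p = 0.261), and Imp4 and Nop14 stayed below 1 FPKM in every sample. Of the late factors that finish the small subunit, only Tsr1 and the nuclease gene Nob1 had a row. Tsr1 measured 4.47 and 3.90 FPKM in NEAA and 8.78 and 4.26 FPKM in control, and Nob1 2.08 and 2.49 FPKM in NEAA and 2.43 and 3.28 FPKM in control. Neither passed (adjusted p = 0.381 and 0.419), and both overlapped.

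**Figure D3:**
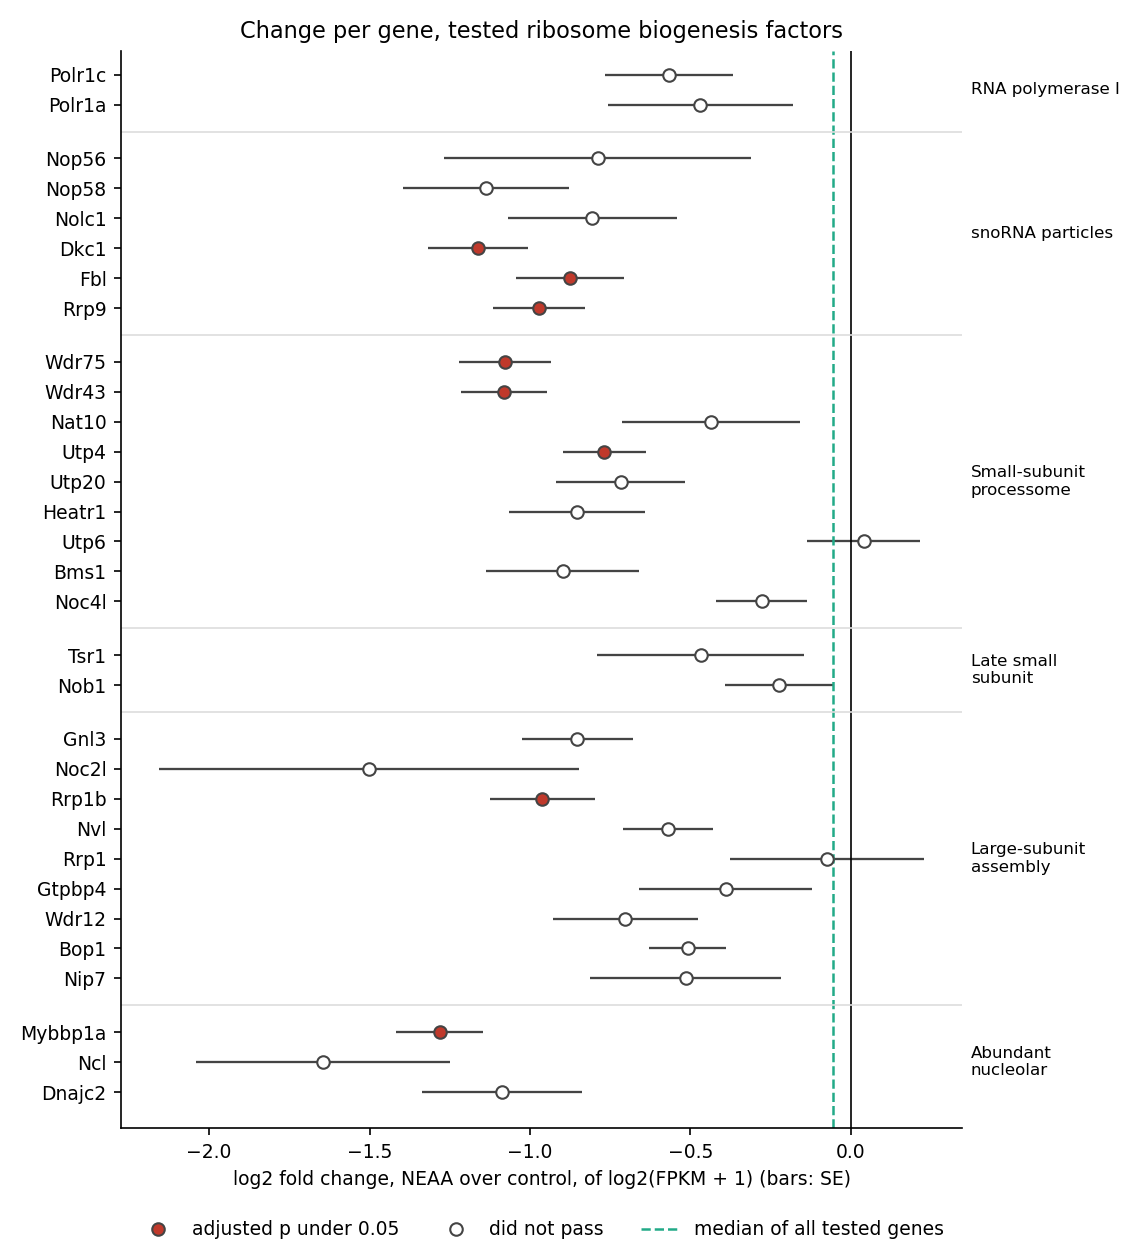
Log2 fold change of NEAA over control on the log2(FPKM + 1) scale for the 31 tested genes, with bars of 1 SE and filled points for the 8 genes that passed an adjusted p under 0.05. The dashed line is the median of all 4700 tested genes, -0.06; Utp6 is the only point right of 0.

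Large-subunit factors had 9 of 16 genes with a row, all of them tested. Of these 1 fell and 6 had NEAA below control without overlap, against 4.11% and 34.4% of all tested genes. All 9 log2 fold changes were negative, with a median of -0.57. Rrp1b (chromosome 17, 32036100 to 32062865), a nucleolar partner of protein phosphatase 1, measured 5.36 and 5.66 FPKM in NEAA and 10.3 and 13.2 FPKM in control. It fell (log2 fold change -0.96, SE 0.16, limma adjusted p = 0.0388), a call lost on rescaling to a sum of 1000000, where the log2 fold change was -0.86. Its paralogue Rrp1 measured 6.62 and 4.86 FPKM in NEAA and 4.43 and 8.11 FPKM in control, with overlapping groups and a log2 fold change of -0.07 (adjusted p = 0.886). A difference between the paralogues was not tested.

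Gnl3 (chromosome 14, 31012433 to 31019152, minus strand), which codes for the nucleolar GTPase nucleostemin, measured 17.1 and 13.1 FPKM in NEAA and 28.2 and 27.5 FPKM in control and missed the threshold (log2 fold change -0.85, SE 0.17, limma adjusted p = 0.0508). Of its 8 models, 7 had both NEAA samples below both control samples. The exception, model 3, was at 3.70 and 0.185 FPKM in NEAA and at 0.284 and 0.519 FPKM in control. Noc2l, whose product also inhibits histone acetylation, measured 7.36 and 5.83 FPKM in NEAA and 9.97 and 40.7 FPKM in control without passing (adjusted p = 0.204), with 34.9 FPKM of control 2 in 1 of 4 models. Nvl, an ATPase of the late nucleolar particle, measured 5.70 and 6.67 FPKM in NEAA and 9.81 and 9.47 FPKM in control (adjusted p = 0.0727). Bop1 and Wdr12, partners in a complex that processes the large-subunit RNA, measured 1.15 and 1.21 FPKM and 0.819 and 1.70 FPKM in NEAA, against 2.12 and 2.09 FPKM and 2.80 and 2.42 FPKM in control (adjusted p = 0.0682 and 0.124). Gtpbp4 and Nip7 overlapped between groups.

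Of the 6 genes for transcription by RNA polymerase I, 4 had a row, 2 were tested and 0 were called by limma, with 1 at an unadjusted p under 0.05. Polr1c, a subunit shared with RNA polymerase III, measured 4.37 and 3.05 FPKM in NEAA and 5.30 and 6.56 FPKM in control (log2 fold change -0.57, SE 0.20, limma adjusted p = 0.145). Polr1a, the largest subunit, measured 3.16 and 1.67 FPKM in NEAA and 4.44 and 2.91 FPKM in control, with overlap (adjusted p = 0.336). Ubtf, which organises active ribosomal DNA, was at 0.812 and 0.839 FPKM in NEAA and at 1.02 and 0.469 FPKM in control. Tcof1, the treacle gene, was at 0.625 and 0.361 FPKM in NEAA and at 0.797 and 0.585 FPKM in control. Ubtf and Tcof1 were below the filter and were not tested. Levels this low rest on an unknown number of fragments and set no limit on a difference.

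Sums of some genes were led by 1 sample in 1 model. A model was counted as led when its highest value reached 1 FPKM and was over 5 times the next highest, a rule chosen after the values were seen, and it held for 4 of the 135 models: Ncl model 1, Nop56 model 3, Gnl3 model 3 and Noc2l model 2. The same rule removed 140 models over the whole table. With these left out and all genes refitted, 12 of 31 genes fell, the additional ones being Nop56 (log2 fold change -1.39), Ncl (-1.22), Noc2l (-1.14) and Gnl3 (-1.01), with limma adjusted p-values of 0.0128, 0.0137, 0.0407 and 0.0159. Over all genes the same refit called 560 of 4677, of which 237 were lower, against 475 of 4700 and 193 lower before. The summed level of the models left was 159 and 167 FPKM in NEAA, against 341 and 345 FPKM in control. As a share of the models of protein-coding genes that were left, this was 0.649% and 0.673% in NEAA and 1.34% and 1.35% in control.

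Tested as single models rather than sums, 75 of the 135 models reached a mean of 1 FPKM. Of these 4 fell and 0 rose, against 0.956% of the 6064 tested models that fell and 1.95% that rose, 2.9% in either direction. They were the models of Nop56, Mybbp1a, Ncl and Dnajc2 given above. Among the 75 models 60 had both NEAA samples below both control samples, against 36% of all tested models, and 71 had a negative log2 fold change, against 58.9%. Their median log2 fold change was -0.71 beside -0.09 over all models. The other 8 of the 12 models of smallest p did not pass. Among them were Dkc1 model 1 at 0.453 and 0.490 FPKM in NEAA and 1.88 and 1.75 FPKM in control, Rrp1b model 5 at 2.65 and 2.36 FPKM in NEAA and 5.37 and 5.46 FPKM in control, and Wdr43 model 3 at 1.42 and 2.11 FPKM in NEAA and 5.36 and 4.82 FPKM in control. In these and in the other 5 the groups did not overlap, which a choice by smallest p favours. Mybbp1a model 2 was at 14.6 and 14.5 FPKM in NEAA and at 27.8 and 33.9 FPKM in control. Ncl model 2 was at 3.02 and 2.41 FPKM in NEAA and at 6.33 and 6.93 FPKM in control, and Ncl model 4 at 2.04 and 1.78 FPKM in NEAA and 3.99 and 4.84 FPKM in control. Gnl3 model 2 was at 2.32 and 1.80 FPKM in NEAA and at 4.81 and 5.04 FPKM in control, and Nop58 model 4 at 1.21 and 0.944 FPKM in NEAA and 2.60 and 2.64 FPKM in control. The limma adjusted p-values of these uncalled models ran from 0.0501 to 0.0680. Without any 1 of the 4 samples limma called 0 of the 75 models, with 39 to 41 at an unadjusted p under 0.05.

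Several of these genes carry snoRNA genes in their introns, which are released when the intron is spliced out and trimmed. Which models keep an intron that encodes a snoRNA was not determined. In GENCODE M21, 7 of the 35 genes enclose snoRNA genes on the same strand, 21 snoRNAs in all: Nop56 has 5, Nop58 has 4, Ncl, Gnl3 and Wdr43 have 3 each, Tsr1 has 2 and Dkc1 has 1. Nop56 holds Snord110 and Snord57, Nop58 holds Snord70 and Snord11, and Ncl holds Snora75 and Snord82. All 7 hosts had negative values (median log2 fold change -1.08), and 2 fell, where 55.1% of all tested genes were negative and 4.11% fell. Of the 24 tested genes without a snoRNA inside, 23 had a negative value, with a median of -0.71, and 6 fell. The difference between hosts and the rest was not tested. Of 13 tested genes with an annotated gene on the opposite strand, all 13 had a negative value and 5 fell, with a median of -0.85. Of 18 without one, 17 had a negative value and 3 fell, with a median of -0.64. What reads of the opposite strand add to these values was not tested.

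Because most of these genes were lower with NEAA, the start regions were searched for the E-box CACGTG, a word bound by MYC and related factors, which is its own reverse complement. RefSeq windows of 300 bases, 250 before to 50 after the start (GRCm38.p6), were found for 41 of the 50 genes, and 10 of their 50 windows (20%) held the word, against 7.15% of all 32851 windows. Of the genes that fell, Mybbp1a, Utp4 and Wdr43 have it 40, 15 and 17 bases from the start, and their windows are shown with the E-box in capitals, 5′ to 3′ on the gene's strand. They lie at chr11:72441077-72441376 for Mybbp1a, chr8:106893390-106893689 for Utp4 and chr17:71615965-71616264 for Wdr43, all on the plus strand, and the window of Wdr75 at chr1:45794916-45795215, a gene that also fell and has no such word, follows for comparison.
Mybbp1a: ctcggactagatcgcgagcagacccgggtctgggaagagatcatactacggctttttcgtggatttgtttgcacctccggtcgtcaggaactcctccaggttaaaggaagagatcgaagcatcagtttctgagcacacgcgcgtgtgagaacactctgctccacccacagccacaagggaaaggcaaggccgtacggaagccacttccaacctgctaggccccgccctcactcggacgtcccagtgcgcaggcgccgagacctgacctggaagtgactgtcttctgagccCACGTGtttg
Utp4: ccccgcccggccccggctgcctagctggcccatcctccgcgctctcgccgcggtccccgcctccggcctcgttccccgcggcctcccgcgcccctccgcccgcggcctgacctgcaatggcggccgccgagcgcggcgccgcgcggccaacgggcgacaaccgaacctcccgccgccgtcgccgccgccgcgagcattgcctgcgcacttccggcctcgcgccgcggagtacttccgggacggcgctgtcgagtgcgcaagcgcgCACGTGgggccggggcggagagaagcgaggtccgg
Wdr43: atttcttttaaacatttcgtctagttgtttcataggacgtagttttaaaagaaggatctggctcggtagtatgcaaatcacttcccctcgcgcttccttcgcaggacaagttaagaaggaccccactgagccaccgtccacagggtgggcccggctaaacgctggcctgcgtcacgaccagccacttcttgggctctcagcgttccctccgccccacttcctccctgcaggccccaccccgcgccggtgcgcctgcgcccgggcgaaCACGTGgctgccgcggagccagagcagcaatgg
Wdr75: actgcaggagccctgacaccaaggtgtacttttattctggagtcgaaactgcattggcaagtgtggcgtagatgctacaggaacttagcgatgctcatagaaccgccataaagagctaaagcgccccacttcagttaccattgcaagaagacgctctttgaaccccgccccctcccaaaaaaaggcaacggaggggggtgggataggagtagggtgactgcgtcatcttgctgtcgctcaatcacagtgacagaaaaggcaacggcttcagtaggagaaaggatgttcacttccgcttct
Of 5 tested genes with the E-box, 3 fell, with a median log2 fold change of -0.77 over the 5. The others, Tsr1 and Utp20, did not pass. The E-box also lies in the windows of Imp4, which was below the filter, and of Ltv1, Nop2, Pes1 and Utp18, which have no row. Of 22 tested genes with a window and without the E-box 4 fell, with a median of -0.80. Among all tested genes 4.11% fell. A match describes these letters and is no evidence of binding, and its absence says nothing about any factor.

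A list of 116 further genes of the pathway, such as exosome subunits, GTPases and other processome proteins, had 84 genes with a row and 65 tested. Of these 65, 5 fell and 0 rose, against 4.11% of all tested genes that fell and 6% that rose. Of the 65, 61 had a negative log2 fold change, against 55.1% of all, and 48 had both NEAA samples below both control samples, against 34.4%. As single models, limma called 0 of the 99 tested models of this list, with 42 lower at an unadjusted p under 0.05, against 15.3% of all tested models. The median log2 fold change of the 65 genes was -0.50, between that of the 31 genes and that of all genes. The 5 that fell were Fcf1, Dimt1, Utp15, Rrp15 and Mrto4, with limma adjusted p-values from 0.0218 to 0.0421. Fcf1, a processome nuclease-fold protein, measured 1.52 and 1.21 FPKM in NEAA, against 4.24 and 5.46 FPKM in control. Dimt1, which methylates the end of the small-subunit RNA, measured 2.31 and 2.23 FPKM in NEAA and 4.81 and 4.58 FPKM in control. Utp15, of the same early complex as Wdr43 and Wdr75, measured 1.34 and 1.51 FPKM in NEAA and 3.46 and 3.13 FPKM in control. Rrp15 and Mrto4, both of large-subunit assembly, measured 1.51 and 1.63 FPKM and 3.23 and 2.46 FPKM in NEAA, against 3.23 and 4.14 FPKM and 5.87 and 7.28 FPKM in control. On rescaling to a sum of 1000000 the call of Fcf1 held and those of the other 4 were lost.

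**Figure D4:**
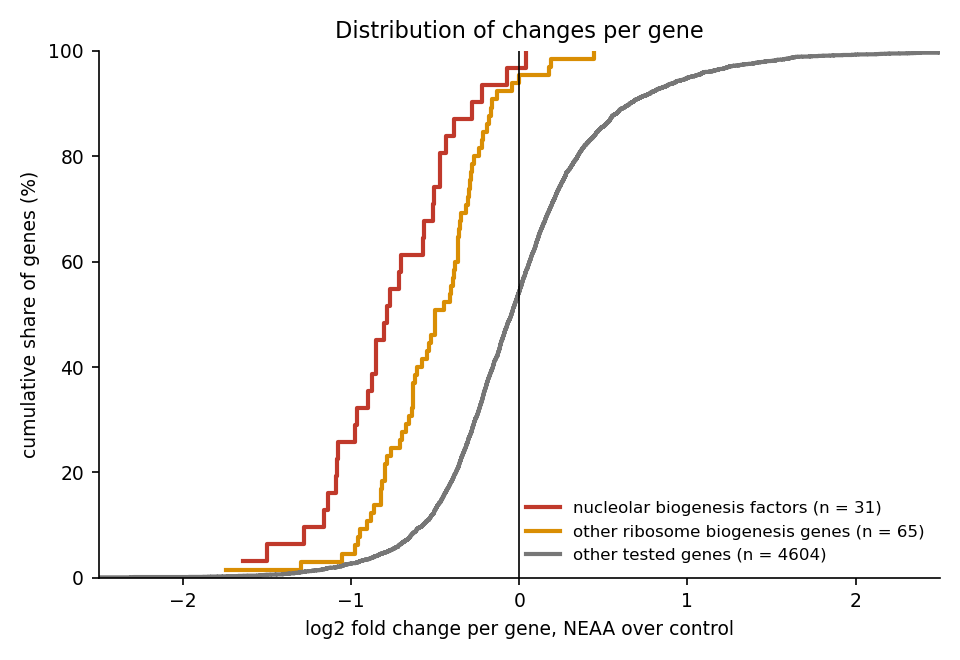
Cumulative share of genes, in percent, by log2 fold change of NEAA over control for the 31 tested nucleolar biogenesis factors, 65 further ribosome biogenesis genes and the other 4604 tested genes. The curves of both biogenesis lists lie left of the third, with medians of -0.79 and -0.50; the x axis is clipped at -2.5 and 2.5.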

How the data were processed

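RNA of 4 samples of primary mouse hepatocytes was sequenced from NEBNext Ultra libraries after Trizol extraction, per the labels' protocols. The authors deposited FPKM per row, 1 file per sample. The submitters' processing notes name the builds GRCm38 and mm10, while for the aligner, annotation release, strand setting and filters the sources used here name nothing. FPKM are relative within a library and keep no depth, so no counting interval can be given.

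All files list identical row identifiers in one order, and symbols and coordinates (1-based) come from GENCODE M21. Models, and genes as sums of their models, were kept from a mean of 1 FPKM upward and fitted by group as log2(FPKM + 1) with limma 3.58.1 in R 4.3.3 (eBayes with a mean trend), 2-sided, with Benjamini-Hochberg adjustment over all features tested and a threshold of 0.05. The log scale understates changes of low models. With 2 samples a group, the smallest p that exact permutation allows is 0.333.

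The genes, lists and roles were chosen with earlier results of these data known, so no test over the list is given. By rule, values per sample are given for genes with a called model or sum, the 12 models of smallest p, the 2 genes of highest level in each role, and the called genes of the further list; other genes were given values after these were seen. Alternatives were pseudocounts of 0.1 and 0.5, filters of 0.5 and 5 FPKM or none, 4 scalings, no mean trend, a replicate block, each sample left out, and a rule on models led by 1 sample.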

Additional observations from a re-analysis of the deposited data

How the results depend on the processing

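No log2 fold change of the genes and models followed through the alternatives reversed its sign. Most were followed for a call or a small p, which favours a stable sign. Over all 31 tested genes of the set, 30 values were negative in the main fit and 29 under both rescalings. Limma called 176 models and 475 genes in all, of which 4 models and 8 genes belonged to the ribosome biogenesis set. Over all models the count was 100 with a filter of 5 FPKM, 0 without a filter, 110 rescaled to a sum of 1000000, 117 rescaled without Gm26917 and Gm42418, and 0 to 0 with 1 sample left out. The models of the set gave 0 without a filter, 2 with either rescaling, and 0 to 0 with 1 sample left out. Over all genes the count was 153 with a filter of 5 FPKM, 244 without a filter, and 0 to 91 with 1 sample left out. The genes of the set gave 5 with a filter of 5 FPKM, 4 without a filter, 5 rescaled to a sum of 1000000, 12 without models led by 1 sample, and 0 to 2 with 1 sample left out. Where limma called 0 models of the set, 39 to 61 had an unadjusted p under 0.05, and where it called 0 models in all, 1076 to 4000 had. A fit with 1 sample left out assumes that the lone sample of its group varies like the others.

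With the replicate number as a block, limma called 0 models and 185 genes, 0 and 1 of them in the set, with 1323 models in all and 49 of the set at an unadjusted p under 0.05. Nothing says that the numbers pair samples, and the deviations of NEAA 1 and control 1 from their group means had r = -0.0019 over 6064 models.

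The median log2 fold change of the 75 models was -0.71. It was -1.08 and -0.88 with pseudocounts of 0.1 and 0.5, -0.59 over the 102 models that a filter of 0.5 FPKM keeps, -1.08 over the 12 that one of 5 FPKM keeps, and -0.43 over 133 without a filter. It was -0.66 under quantile normalization, -0.67 median-centred, -0.87 and -0.99 under the rescalings, and -0.73 to -0.64 with 1 sample left out. That of the 31 genes, -0.79, was -0.93 with a pseudocount of 0.1, -1.02 over the 16 genes kept by a filter of 5 FPKM and -0.82 to -0.74 with 1 sample left out. With other filters the set itself differs, and the causes of the other shifts were not tested. Of the values of named genes and models under the alternatives, 391 kept their side of the threshold, 112 lost a call and 10 gained one. The 391 include values called neither in the main fit nor in the alternative, which had no call to lose. Calls were lost mostly with 1 sample left out, with the replicate block (16) and without a filter (12). Depth is unknown, so levels under 1 FPKM set no limit on a difference.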
